A study of Mus musculus with 2 samples.

Results

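The 10 genes described here encode the D-type cyclins (Ccnd1, Ccnd2, Ccnd3), the E-, A-, B- and F-type cyclins Ccne1, Ccna2, Ccnb1 and Ccnf, the kinases Cdk4 and Cdk6 and the kinase inhibitor p27 (Cdkn1b). They were taken by symbol as a fixed set of cell cycle control genes and make up 10 of the 32285 genes in the matrix, all 10 among the 7849 with a mean of at least 10 CPM (UMI counts scaled to a common library total) over both libraries. The question was whether each difference between low and high pigment cells was present within a cell cycle phase or went with the shares of the phases.

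The cells were B16 F10, a mouse melanoma line that makes melanin and that the labels call melanocytes. Both groups came from cultures seeded at 100 cells/cm2 and grown for 7 days in high-glucose DMEM containing 10% serum, with no other treatment named. Side scatter in a flow cytometer, which stands in for melanin content, was the basis for dividing the cells into fractions of low and of high pigment. Each fraction gave 1 droplet library of 3' ends with unique molecular identifiers (UMIs), so no difference has a replicate check, no test was made, and every interval covers counting error only.

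In the cell cycle, D-type cyclins bind Cdk4 or Cdk6 in G1 and phosphorylate the retinoblastoma protein, which releases E2F factors. Cyclin E with Cdk2 then carries cells into S phase, cyclin A acts through S and G2, and cyclin B with Cdk1 drives mitosis. p27 blocks cyclin E and Cdk2 and also binds cyclin D complexes. Cyclin F activates no kinase and is the substrate receptor of a ubiquitin ligase. In melanoma the cyclin D and Cdk4 branch is often overactive.

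There were 1900 low pigment cells with 32437194 UMIs (median 16019.5 per cell) and 2136 high pigment cells with 28848691 UMIs (median 12557 per cell). All 7 melanocyte lineage markers were measured. None of 6 fibroblast and none of 6 leukocyte markers reached 10 CPM, and of 5 endothelial markers only Pecam1 did (726 low pigment and 81 high pigment UMIs). By the authors' phase calls, G1, S and G2M cells gave 33.5%, 38.3% and 28.2% of the UMIs of the low pigment library and 30.0%, 21.0% and 49.0% of those of the high pigment library. The high pigment library thus had more G2M and less S phase RNA. Median UMIs per cell in G1, S and G2M were 13817, 16663 and 20280 in low pigment and 10466, 11753 and 14087 in high pigment cells. Of the authors' 4 clusters, clusters 0 and 3 were 97.7% and 96.5% high pigment cells, while clusters 1 and 2 were 4.48% and 5.19% high pigment cells. Cluster and library therefore cannot be told apart. Phases and clusters were called on the expression of these same cells, so levels across phases or clusters are descriptions.

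The proximal promoters of 3 members are shown first. Ccnb1 and Ccnf are both low in G1, but Ccnb1 differed between the libraries mainly with the phase shares and Ccnf within each phase. Ccne1 was highest in S phase. Each stretch is the 250 bases before the RefSeq transcript start, from build GRCm38.p6, minus strand, written 5′ to 3′ along the gene. In GENCODE M21 these genes begin upstream of that start, so the last bases of each stretch lie within the annotated gene. Capitals mark CCAAT, the letters bound by NF-Y, and TTTGAA, the core of the cell cycle homology region; both were searched on both strands.
Ccnb1 promoter, chr13:100786487-100786736: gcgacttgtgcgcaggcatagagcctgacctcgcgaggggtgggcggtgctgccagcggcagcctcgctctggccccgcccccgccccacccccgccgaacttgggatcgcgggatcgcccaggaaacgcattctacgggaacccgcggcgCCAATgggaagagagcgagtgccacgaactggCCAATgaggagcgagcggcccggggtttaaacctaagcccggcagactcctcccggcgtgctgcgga
Ccnf promoter, chr17:24251410-24251659: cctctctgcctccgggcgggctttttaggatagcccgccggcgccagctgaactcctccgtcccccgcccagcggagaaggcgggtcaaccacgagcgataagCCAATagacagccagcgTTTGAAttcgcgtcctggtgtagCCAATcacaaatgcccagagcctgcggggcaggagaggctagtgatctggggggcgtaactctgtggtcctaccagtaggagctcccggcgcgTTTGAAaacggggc
Ccne1 promoter, chr7:38107491-38107740: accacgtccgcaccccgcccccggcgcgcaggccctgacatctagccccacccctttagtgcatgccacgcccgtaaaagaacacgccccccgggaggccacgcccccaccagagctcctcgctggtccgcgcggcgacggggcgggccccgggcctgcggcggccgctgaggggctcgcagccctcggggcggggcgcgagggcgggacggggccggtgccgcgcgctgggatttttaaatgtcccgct
In Ccnb1 the CCAAT boxes began 99 and 67 bases before the start. In Ccnf they began 147 and 107 bases before it, and TTTGAA began 130 and 14 bases before it. The Ccne1 window held neither, nor TTTNNCGC, an E2F-type sequence. Of 32851 promoters of the same length, 33.8% held CCAAT, 15.99% TTTGAA and 4.28% TTTNNCGC, so CCAAT is common. RefSeq entries were used for 7 of the 10 members. Cdkn1b held CCAAT at 161 and 35 bases before its start, Cdk6 held TTTNNCGC at 198, 1 of 2 Ccnd3 promoters held CCAAT at 108, and Cdk4 held none of the 3 sequences. These matches describe letters and not binding.

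A gene was counted by size alone: as higher where its CPM was at least 25% above that of low pigment cells, and as lower at a ratio of 0.8 or less, the same factor downward. Across whole libraries, Ccnb1 and Ccnf were higher and Ccnd1, Ccnd3, Ccne1 and Cdkn1b lower in high pigment cells by this size limit. That is 2 of 10 members higher against 10.9% of all measured genes, and 4 of 10 lower against 23.4%. After division by the median gene's ratio, the 852 higher and 1838 lower genes became 1243 and 1356. Within G1, 2 of 9 measured members were higher (background 11.8%) and 3 lower (25.9%). Within S phase 2 of 10 were higher (13.6%) and 3 lower (22.2%), and within G2M 1 of 10 was higher (11.1%) and 3 lower (26.1%). At common phase shares, that is with each phase weighted by the mean of its UMI shares in both libraries, Ccnf alone was higher (1 of 10, background 10.4%), and Ccnd3, Ccne1 and Cdkn1b were lower (3 of 10, 23.4%). The members' median log2 ratio was −0.14 against −0.08 for all measured genes by library, and −0.11 against −0.09 at common phase shares. By library both shares lay above the background, and at common phase shares they lay closer to it. Each rests on few of 10 members and was not tested, so the interest is in the single genes.

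**Figure D1:**
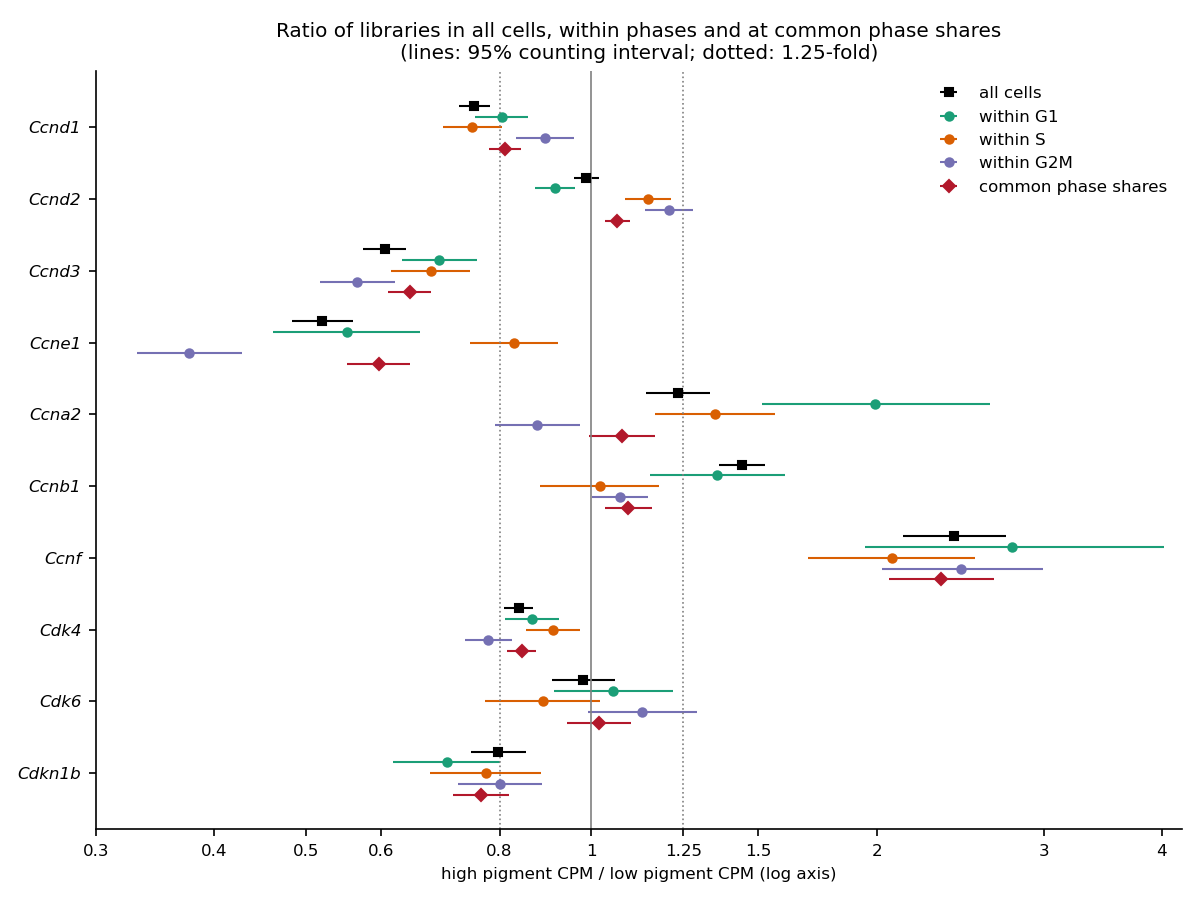
Ratio of high to low pigment CPM (horizontal log axis) for each of the 10 genes, in all cells, within each of the authors' phases and at common phase shares; lines are 95% counting intervals and dotted lines mark the size limit in each direction. Ccnf stands to the right and Ccnd3 to the left of the dotted lines in every comparison, while Ccnb1 moves from 1.44 in all cells to 1.09 at common phase shares.

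Ccnd3 (chr17:47505051-47599691, plus strand), the D-type cyclin prominent in differentiating cells, was lower in high pigment cells in every phase. Its level was 127 CPM (95% interval 123–131) in low and 76.8 CPM (73.6–80.1) in high pigment cells, a ratio of 0.605 (95% interval 0.574–0.637). In G1, S and G2M it had 123, 141 and 113 CPM in low pigment and 85.3, 95.3 and 63.7 CPM in high pigment cells. Every high pigment phase lay below every low pigment phase. The within-phase ratios were 0.691 (0.631–0.757), 0.677 (0.615–0.744) and 0.566 (0.517–0.620), and the ratio at common phase shares was 0.643 (0.609–0.678).

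Ccnd1 (chr7:144929931-144939925, minus strand), the D-type cyclin that growth factor signalling induces, was lower in each phase by a smaller margin. It had 208 CPM (203–213) in low and 156 CPM (152–161) in high pigment cells, a ratio of 0.753 (0.725–0.782). In G1, S and G2M the levels were 228, 234 and 147 CPM in low pigment and 183, 175 and 131 CPM in high pigment cells. The S phase ratio, 0.749 (0.697–0.804), passed the size limit, while those of G1 (0.804) and G2M (0.893, 0.832–0.958) did not. Weighted to common phase shares it was 0.810 (0.779–0.842), just within the limit. In cells with 10000 to 20000 UMIs the G2M ratio was 1.10, the opposite direction.

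Ccnd2 (chr6:127125162-127152193, minus strand), the third D-type cyclin, had nearly the same level in both libraries, and was higher in high pigment S and G2M cells. The libraries had 282 CPM (276–288) and 278 CPM (272–284), a ratio of 0.988 (0.959–1.02). In G1 it had 364 CPM in low and 333 CPM in high pigment cells, a ratio of 0.916 (0.872–0.961). This G1 direction was not stable: the ratio was 1.04 with phases called anew, 1.03 (0.971–1.09) for cluster 3 over cluster 1, and 0.984 in cells with 10000 to 20000 UMIs. In S phase the levels were 279 and 321 CPM (ratio 1.15, 1.09–1.21), and in G2M 188 and 226 CPM (1.21, 1.14–1.28). None passed the size limit. Its fall in level from G1 to G2M was 1.94-fold in low and 1.47-fold in high pigment cells. Divided by the median gene's ratio, the library ratio became 1.04 and lay above 1. The G2M ratio so divided was 1.29 and passed the size limit. Over the alternatives the G2M ratio ranged from 1.18 to 1.40.

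The UMIs of the D-type cyclins were therefore divided differently. Ccnd2 gave 45.7% (exact Clopper-Pearson 95% interval 45.0–46.4%) of D-type cyclin UMIs in low and 54.4% (53.6–55.2%) in high pigment cells. Ccnd3 gave 20.6% and 15.02%, and Ccnd1 33.7% and 30.5%. In G2M cells the share of Ccnd2 was 41.9% and 53.7%. The sum of all D-type cyclins was 616 CPM in low and 511 CPM in high pigment cells.

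**Figure D2:**
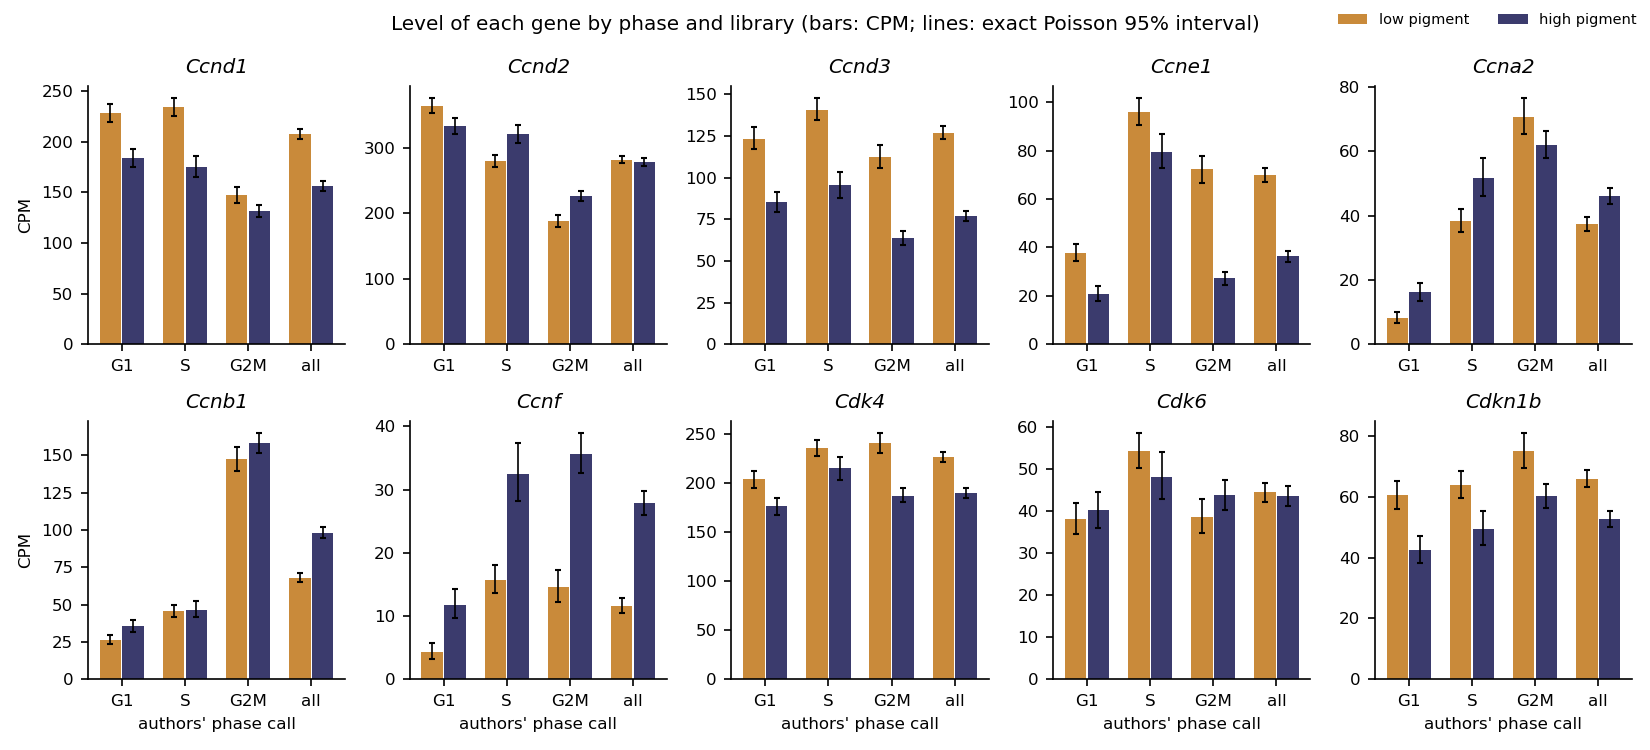
CPM (vertical axis, from 0) of each gene in G1, S, G2M and all cells of the low and high pigment library; lines are exact Poisson 95% intervals. Ccnf is higher in high pigment cells and Ccnd3 lower in each phase, Ccne1 parts most in G2M (72.2 against 27.2 CPM), and Ccnb1 is close in S and G2M.

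Cdk4 (chr10:127063534-127067920, plus strand), the kinase partner of the D-type cyclins, was somewhat lower in high pigment cells, most in G2M. It had 227 CPM (221–232) in low and 190 CPM (185–195) in high pigment cells, a ratio of 0.838 (0.809–0.868). In G1, S and G2M it had 204, 236 and 241 CPM in low and 176, 215 and 187 CPM in high pigment cells. The ratios were 0.865, 0.912 and 0.778 (0.735–0.824), of which the last passed the size limit. That G2M ratio divided by the median gene's ratio was 0.831, so the call ended. Low pigment cells had about as much in G2M as in S, and high pigment cells 1.15-fold more in S than in G2M.

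Cdk6 (chr5:3341485-3531008, plus strand), the other partner of D-type cyclins, differed little. Its level was 44.5 CPM (42.2–46.8) in low and 43.6 CPM (41.2–46.1) in high pigment cells, and the interval of the ratio, 0.909–1.06, contains 1. The within-phase ratios of 1.06 in G1, 0.888 in S and 1.13 in G2M each had an interval that contains 1. The ratio at common phase shares was 1.02 (0.943–1.10), and the size limit lies outside this interval in both directions.

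Cdkn1b (chr6:134920401-134925513, plus strand), which encodes p27, was lower in high pigment cells in each phase. It had 66.0 CPM (63.2–68.9) in low and 52.7 CPM (50.04–55.4) in high pigment cells, a ratio of 0.798 (0.746–0.852). In G1, S and G2M the levels were 60.5, 64.0 and 75.1 CPM in low and 42.6, 49.6 and 60.2 CPM in high pigment cells. Both libraries had their highest level in G2M. The ratios were 0.703 (0.617–0.800), 0.774 (0.675–0.885) and 0.801 (0.723–0.887), and 0.765 (0.715–0.819) at common phase shares, farther from 1 than over the whole library. The library ratio lay close to the limit of 0.8, and that of G2M just missed it. Divided by the median gene's ratio, the value was 0.843 by library, 0.801 in S and 0.813 at common phase shares, so these calls ended, and 0.751 in G1, where the call held.

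Ccne1 (chr7:38097984-38107534, minus strand), the cyclin E of the G1 to S transition, was the member with the lowest ratio, and its difference was uneven over the phases. It had 69.8 CPM (67.0–72.7) in low and 36.3 CPM (34.1–38.6) in high pigment cells, a ratio of 0.520 (0.483–0.560). In low pigment cells the levels were 37.8 CPM in G1, 96.0 in S and 72.2 in G2M. In high pigment cells they were 20.9, 79.6 and 27.2 CPM. Both libraries peaked in S phase, where the ratio was 0.829 (0.745–0.923) and within the size limit. In G1 it was 0.553 (0.461–0.660) and in G2M 0.376 (0.331–0.428). The S phase ratio was 0.905 in cells with 10000 to 20000 UMIs. With phases called anew it was 0.969, above its interval and close to 1. The level in S was 2.93-fold that in G2M in high pigment cells and 1.33-fold in low pigment cells. The ratio at common phase shares was 0.596 (0.553–0.643).

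Ccna2 (chr3:36564865-36572150, minus strand), the cyclin A of S and G2, was slightly higher in the high pigment library, and its direction differed between phases. It had 37.4 CPM (35.4–39.6) in low and 46.2 CPM (43.7–48.7) in high pigment cells, a ratio of 1.23 (1.14–1.33) that misses the size limit. In G1 the levels were 8.11 CPM (88 UMIs) in low and 16.2 CPM (140 UMIs) in high pigment cells, a ratio of 1.99 (1.52–2.63). In S phase they were 38.4 and 51.9 CPM (1.35, 1.17–1.56), and in G2M 70.9 and 62.2 CPM (0.877, 0.791–0.972). With common phase shares the ratio was 1.08 (0.994–1.17), an interval that contains 1. The library ratio ranged over the alternatives from 0.976, as UMIs per cell with no scaling for depth, to 1.70 in cells with 10000 to 20000 UMIs. It passed the size limit in that window, with the mean of per-cell CPM (1.29) and divided by the median gene's ratio (1.30).

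Ccnb1 (chr13:100778650-100786570, minus strand), the mitotic cyclin B1, was higher over the whole library and close within S and G2M. It had 67.9 CPM (65.1–70.8) in low and 97.96 CPM (94.4–102) in high pigment cells, a ratio of 1.44 (1.36–1.53). In G1, S and G2M the levels were 26.3, 45.6 and 148 CPM in low and 35.6, 46.6 and 158 CPM in high pigment cells. The ratio was 1.02 (0.882–1.18) in S and 1.07 (1.00–1.15) in G2M. Only in G1, at 1.36 (1.15–1.60), did it pass the size limit. With phase shares made equal it was 1.09 (1.03–1.16). In cells with 10000 to 20000 UMIs the library ratio was 2.22. In that window 14.2% of low pigment and 51.7% of high pigment cells were called G2M, against 23.5% and 44.4% of all cells, and the ratio at common phase shares was 1.21.

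The contents of the phases differed too, which touches the G1 values of Ccna2, Ccnb1 and Ccnf and the G2M value of Ccne1. How far these contents bear on the G2M ratio of Ccne1 (0.376), which peaked in S phase, was not tested. Of lists of S and of G2 and M genes that hold no member, 14 of 33 measured S genes and 25 of 43 measured G2 and M genes were higher in high pigment G1 cells, against 11.8% of all measured genes. In G2M cells, 21 of 52 G2 and M genes and 23 of 39 S genes were lower, against 26.1% of all genes. Divided by the median gene's ratio, 9 of the G2 and M genes and 22 of the S genes were lower there. Phases called anew from these lists, on cells thinned to 7500 UMIs each, gave the authors' phase in 77.5% of cells and put 40.2% of low and 69.3% of high pigment cells in G2M. With these calls the G1 ratio of Ccnb1 was 0.880, the opposite direction, while that of Ccna2 was 1.58, at a level below the minimum for a call. Of the authors' 708 G1 cells of the high pigment library, 24 lay in cluster 1, 1 in cluster 2 and the others in clusters 0 and 3. The 466 in cluster 3 had 9.15 CPM of Ccna2 and 23.9 CPM of Ccnb1, and the 217 in cluster 0 had 26.6 and 51.9 CPM. Ccnf had 7.28 CPM (35 UMIs) in those of cluster 3 and 18.6 CPM (67 UMIs) in those of cluster 0. Against the 719 G1 cells of low pigment cluster 1, those of cluster 3 had a ratio of 1.10 (0.750–1.61) for Ccna2 and 0.906 (0.722–1.13) for Ccnb1. Both intervals contain 1. Each also lies below the ratio of its gene over all G1 cells by the authors' calls, 1.99 for Ccna2 and 1.36 for Ccnb1. The interval of Ccna2, from 44 and 86 UMIs, does contain the 1.58 seen with phases called anew. It therefore cannot show that a smaller difference was absent. For Ccnf the ratio of cluster 3 over cluster 1 in G1 was 1.80 (1.11–2.89). That interval lies above 1 and contains its ratio of 2.78 over all G1 cells. Clusters were called on the expression of these same cells, so the comparison is a description.

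Ccnf (chr17:24222198-24251484, minus strand), which encodes cyclin F, was the member with the highest ratio, and it was higher in each phase. It had 11.5 CPM (374 UMIs, 10.4–12.8 CPM) in low and 27.8 CPM (803 UMIs, 25.9–29.8 CPM) in high pigment cells, a ratio of 2.41 (2.13–2.74). In S phase the levels were 15.7 and 32.5 CPM (2.07, 1.69–2.54), and in G2M 14.5 and 35.7 CPM (2.46, 2.02–2.996). In G1, with 4.24 and 11.8 CPM from 46 and 102 UMIs, the mean level was below the minimum for a call. The G1 ratio was 2.78 (1.94–4.02), and with phases called anew it was 1.76, below that interval. The level in high pigment G1 cells was close to that in low pigment G2M cells. Weighted to common phase shares the ratio was 2.34 (2.06–2.66).

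The CPM difference of each gene was then divided exactly into a part within phases and a part from the phase shares. The phase-share part made up 75.5% of the difference of Ccnb1 (22.7 of 30.0 CPM) and 63.6% of that of Ccna2 (5.57 of 8.75 CPM). It made up 26.5% for Ccnd1 (−13.6 of −51.3 CPM), 17.6% for Ccne1 (−5.91 of −33.5 CPM) and 11.4% for Ccnd3 (−5.74 of −50.2 CPM). For Ccnf it was 4.63% (0.755 of 16.3 CPM) and for Cdk4 3.11% (−1.14 of −36.7 CPM). For 3 genes the parts had opposite signs. Ccnd2 had 17.5 CPM within phases and −21.0 CPM from the shares. Cdkn1b had −15.8 and 2.43 CPM, and Cdk6 0.823 and −1.67 CPM. The differences of Ccnd1, Ccnd3, Ccne1, Cdk4, Cdkn1b and Ccnf were thus mostly within phases, and that of Ccnb1 mostly in the phase shares. For Ccna2 the phase-share part was the larger one, but its within-phase part (3.18 CPM) is a net value. Its ratios were 1.99 in G1, 1.35 in S and 0.877 in G2M, so differences within phases partly cancelled.

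**Figure D3:**
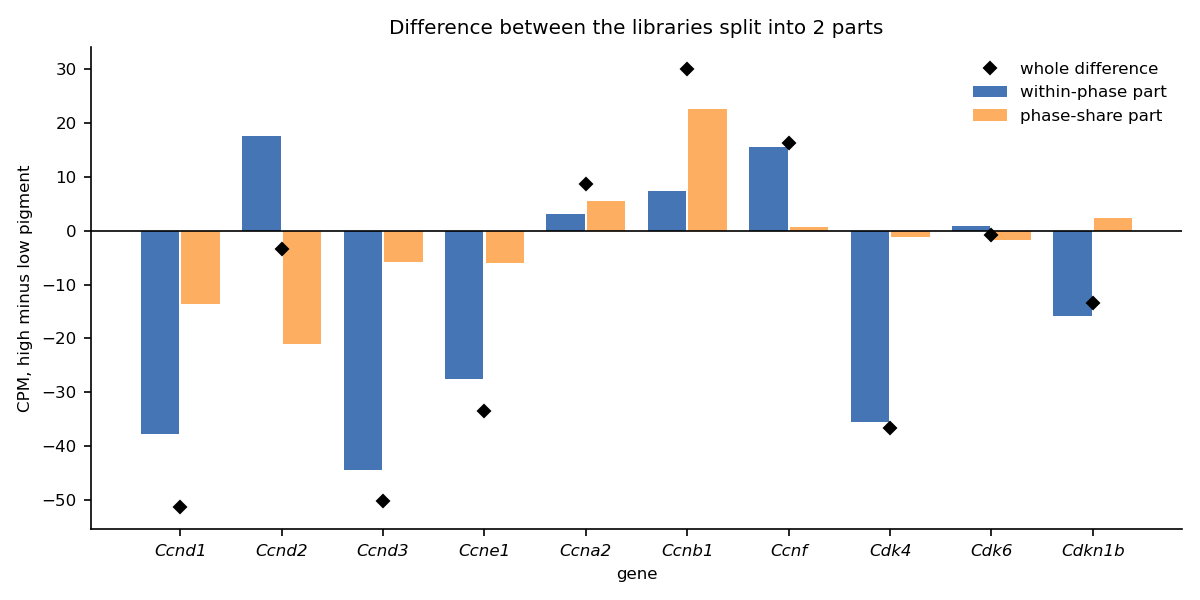
CPM in high minus low pigment cells for each gene (diamonds) and its within-phase and phase-share parts (bars, from 0, which add up to the diamond). The phase-share bar is the longer one for Ccna2, Ccnb1, Ccnd2 and Cdk6 (5.57, 22.7, −21.0 and −1.67 CPM). The bars of Ccnd2 (17.5 and −21.0 CPM), Cdk6 and Cdkn1b point in opposite directions.

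A finer division of the cycle was made with the same phase gene lists on the thinned cells. Over 9 groups of cells, from 3 levels of each score, and weighted to common shares, the ratio of Ccnb1 was 1.01 (0.952–1.07) and that of Ccna2 1.01 (0.932–1.10). Ccnf stayed at 2.36 (2.07–2.69), Ccne1 was 0.629 (0.581–0.681), Ccnd3 0.669 (0.633–0.708) and Cdkn1b 0.776 (0.723–0.834). Ccnd1 was 0.865, Cdk4 0.858 and Cdk6 1.03, all within the size limit, as was Ccnd2 at 1.13. The order of the genes by ratio was the one seen with the authors' phases at both ends, with Ccne1 lowest and Ccnf highest.

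Along 5 equal groups of cells by G2M score, Ccnb1 and Ccnf behaved differently. From the lowest to the highest group, Ccnb1 went from 13.4 to 159 CPM in low and from 12.0 to 187 CPM in high pigment cells. It was higher in high pigment cells in the upper groups, with 90.1 CPM (81.8–99.0) against 112 CPM (104–119) in the fourth. Ccnf went from 3.65 to 15.9 CPM in low and from 8.03 to 42.6 CPM in high pigment cells. Ccnf in low pigment cells was already at 17.6 CPM (14.4–21.4) in the middle group, and the highest group lay no higher. High pigment cells of the middle group had 22.9 CPM (19.5–26.7), so there the intervals overlap. Ccne1 reached its highest level in low pigment cells, 91.5 CPM, in the fourth group, and in high pigment cells, 44.6 CPM at most, was at 27.7 CPM in the highest group. Ccna2 ended at 78.3 CPM in low and 70.4 CPM in high pigment cells.

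**Figure D4:**
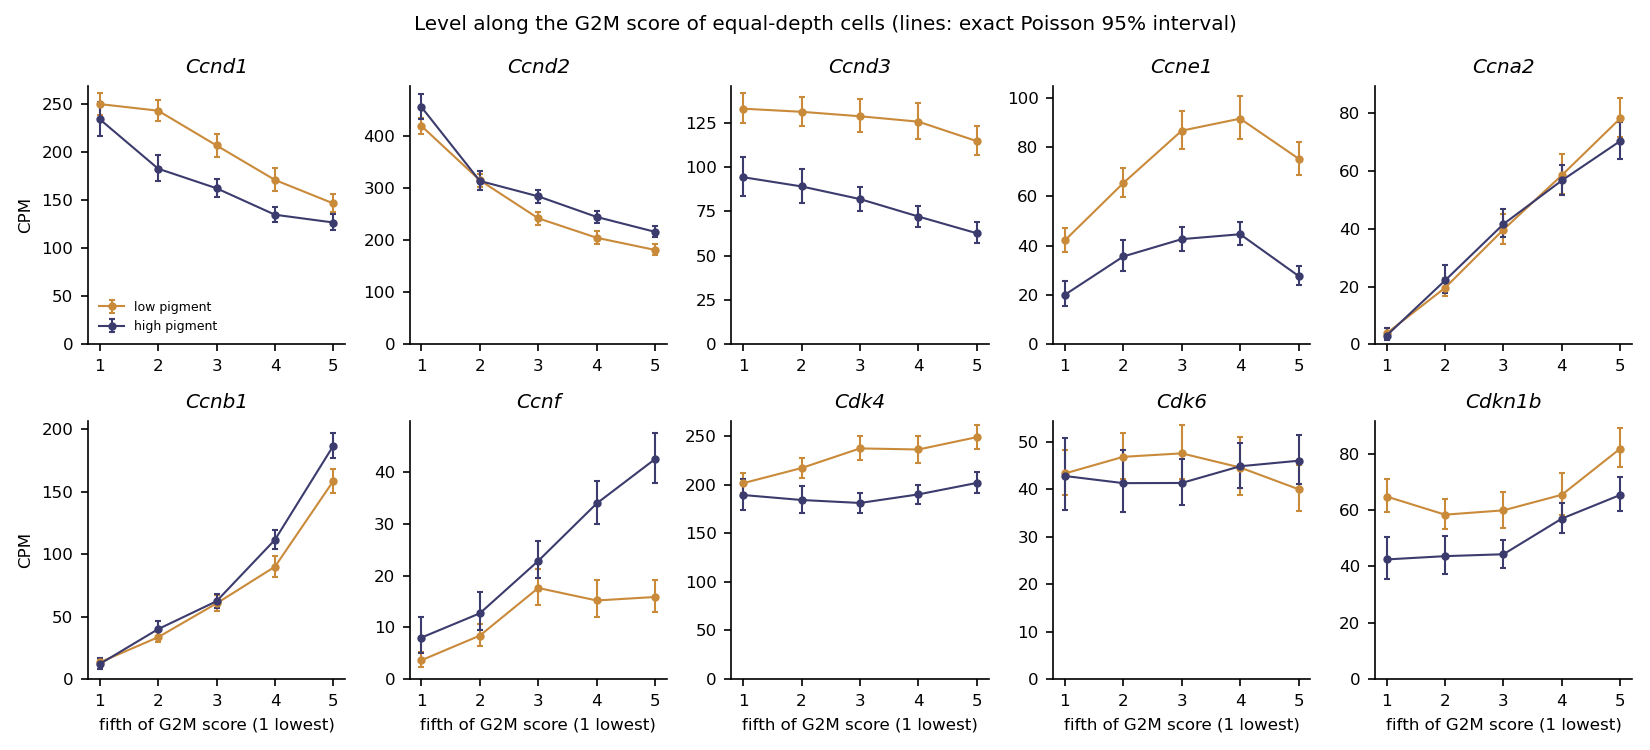
CPM (vertical axis, from 0) of each gene in 5 equal groups of cells ordered by G2M score on thinned cells (horizontal axis, 1 lowest), for both libraries; lines are exact Poisson 95% intervals. The curves of Ccna2 lie close together, those of Ccnb1 are close up to the middle group (60.6 and 62.4 CPM) and higher in high pigment cells in the highest (159 and 187 CPM), those of Ccnf part toward the highest group (15.9 and 42.6 CPM), and Ccne1 lies lower in high pigment cells.

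Between the clusters that held most cells of each library, the members were compared in matched phases. In S phase cells of cluster 0 (460 high pigment) against cluster 2 (490 low pigment), Ccnf had a ratio of 1.77 (1.43–2.19), Ccnd2 1.27 (1.19–1.35), Ccne1 0.751 (0.670–0.840) and Ccnd3 0.649 (0.586–0.718). In G2M cells of the same clusters (843 and 329), Ccne1 had 26.3 CPM in high and 82.1 CPM in low pigment cells, a ratio of 0.320 (0.279–0.367). There Ccnf had 2.27 (1.85–2.81), Ccnd3 0.535 (0.485–0.590), Cdk4 0.768 (0.722–0.817) and Ccnb1 1.10 (1.02–1.19). In G1 cells of cluster 3 against cluster 1, Ccne1 had 0.460 (0.359–0.584), Ccnd3 0.723 (0.647–0.807), Cdkn1b 0.769 (0.658–0.897) and Ccnf 1.80 (1.11–2.89). In the few G2M cells of clusters 3 and 1 (54 and 111), Ccnb1 was at 0.712 (0.532–0.937). Ccnf, with 4 and 15 UMIs, had a ratio of 1.04 (0.252–3.27) there, too wide to read. Cdkn1b was at 1.17 (0.804–1.67) there, an interval that contains 1, against 0.751 (0.672–0.840) in G2M cells of clusters 0 and 2. Within the low pigment library, Ccnf in G2M cells was at 7.28 CPM in cluster 1 and 16.5 CPM in cluster 2, and within the high pigment library at 7.58 CPM in cluster 3 and 37.4 CPM in cluster 0. The higher Ccnf level in G2M was thus seen between clusters 0 and 2, and between clusters 3 and 1 the counts were too few to tell. Cells of a library in the clusters of the other, 148 in all, were too few per phase to be compared.

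**Figure D5:**
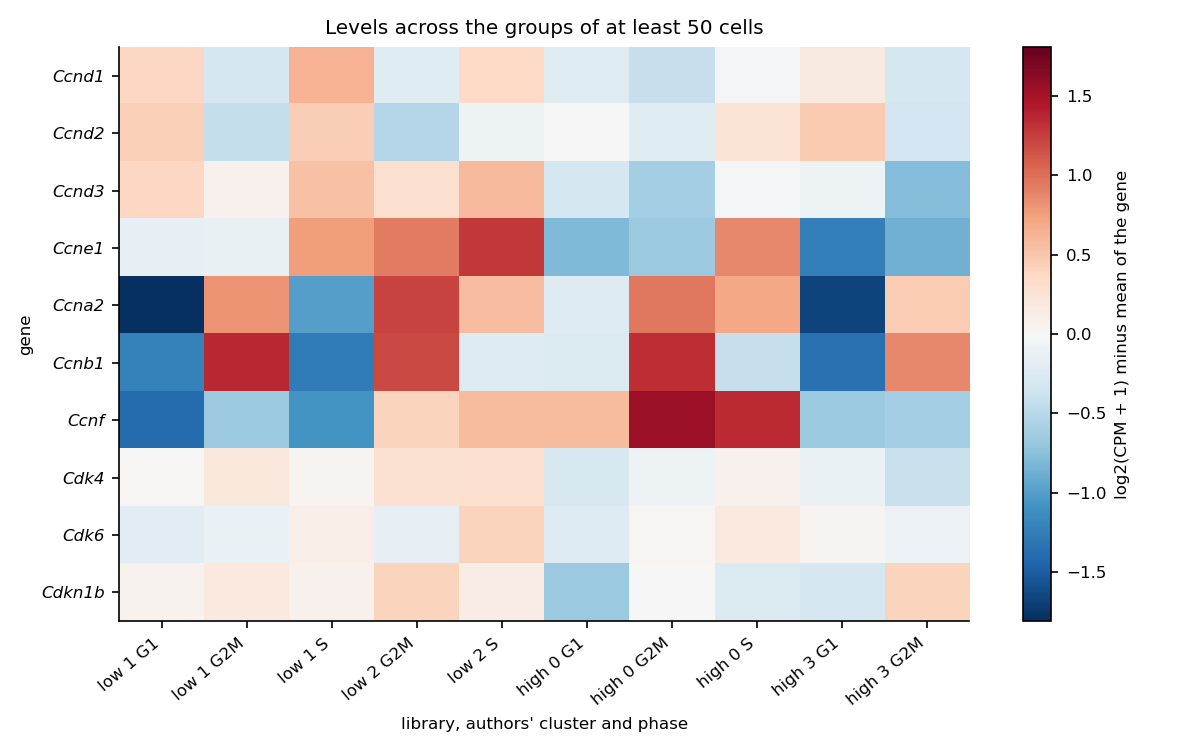
Level of each gene (rows), as log2(CPM + 1) minus the gene's mean, in the 10 groups of library, cluster and phase with at least 50 cells (columns); red is higher and blue lower. Ccna2 has its lowest values in the G1 columns of clusters 1 and 3 (8.28 and 9.15 CPM), and Ccnf its highest in the G2M column of cluster 0 (37.4 CPM).

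Over these 10 groups the genes with the most similar profile to each member were found by Pearson's r of log2(CPM + 1). The groups share libraries and differ in depth, so r is a description. For Ccne1 they were Slbp, the histone mRNA binding protein (r = 0.982), and Ulbp1 (0.978). For Ccna2 they were the spindle checkpoint gene Mad2l1 (0.984) and the mitotic kinesin Kif11 (0.983), and for Ccnb1 Cks2 (0.982) and the mitotic kinase gene Aurka (0.978). Ccnf was most like Rhno1, a DNA damage checkpoint gene (0.967), and Cdca4 (0.956). Ccnd3 was most like Oxsr1 (0.968) and Maff (0.964), Cdk4 like the RNA helicase gene Ddx39b (0.971) and Nup188 (0.967), and Cdkn1b like Rock2 (0.975) and Usp5 (0.972). Ccnd1 was most like Lxn (0.9496) and Gamt (0.933), Ccnd2 like Ppib (0.921) and Slc6a17 (0.907), and Cdk6 like Slc20a1 (0.888) and Fabp5 (0.862). Among the members, Ccnd2 and Ccnb1 had r = −0.954 and Ccna2 and Ccnb1 0.865.

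The other genes of the pathway were counted in the same way, and each count is to be read against 10.9% of all measured genes higher and 23.4% lower by library. Of 12 measured other cyclins, 2 were higher and 2 lower. The largest ratio was that of Ccng1, a p53 target (1.46), and the smallest that of Ccnl1, a cyclin of RNA processing (0.563). The second cyclin E gene, Ccne2, was at 1.08 (0.955–1.23) by library and 1.41 at common phase shares, the latter opposite in direction to Ccne1. Its ratio was 1.77 in S and 0.873 (0.670–1.14) in G2M, the phase where Ccne1 differed most. Ccnb2 was at 1.09 and 0.890. Of 13 measured other kinases of the family, 2 were higher and 1 lower, with Cdk2, the partner of cyclins E and A, largest at 1.38 (1.40 at common shares) and Cdk19 smallest at 0.751. Cdk1 was at 1.03 and 0.897. Of 4 measured other inhibitors, 2 were higher and 1 lower. Cdkn1a, which encodes p21, had 246 CPM in low and 458 CPM in high pigment cells (1.86, 1.81–1.92, and 1.96 at common shares), opposite in direction to Cdkn1b. Cdkn2d, a Cdk4 and Cdk6 inhibitor, was at 0.718, and Cdkn2c at 0.981. Cdkn2a and Cdkn2b had 0 UMIs in both libraries, and with the detection limit taken as 3 counts the level may be up to 0.0925 CPM in low and 0.104 CPM in high pigment cells.

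Of 18 measured pocket proteins, E2F factors and their partners, 2 were higher and 4 lower, from Lin9 at 1.35 to E2f1 at 0.689, and at common phase shares 1 was higher and 1 lower (all genes 10.4% and 23.4%). E2f1 was then at 0.832. The retinoblastoma gene Rb1 was at 0.833 by library. Of 10 genes that set Cdk phosphorylation, 4 were higher and 1 lower by library and 1 was higher and 1 lower at common shares. Wee1, the inhibitory kinase of Cdk1, was at 1.90 and 1.87, and Cdc14a was smallest at 0.771. Of 26 genes of cyclin and inhibitor degradation, 4 were higher and 4 lower by library, and 4 and 5 at common shares. The mitotic ubiquitin enzyme gene Ube2c was at 1.85 and 1.28, and Btrc was smallest at 0.604. Skp2, the receptor that marks p27 for degradation, was at 1.71 (1.51–1.93) and 1.76, and its cofactor Cks1b at 1.20 and 1.13.

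Some members overlap genes on the other strand, and no source used here says whether counting used strand. The overlapping gene had 15.7 and 11.5 CPM for Ccnd1 (LTO1, ratio 0.733), and ratios of 0.891 for Bysl at Ccnd3, 0.974 for Exosc9 at Ccna2 and 1.02 for Tspan31 at Cdk4. Gene positions above are those of GENCODE M21 on GRCm38.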

How the data were processed

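Single-cell RNA was measured in 2 libraries, low and high pigment. The authors deposited 1 matrix of UMI counts for 5818 barcodes, for which the submitters' processing notes name Cell Ranger 6.1.2 and build mm10. No source used here says whether depth was equalised on aggregation or how multi-mapped reads were treated. The authors' deposited cell table gives 4036 cells with UMI counts, the percent of mitochondrial UMIs (median 5.62% in low and 5.07% in high pigment cells), S and G2M scores, phase and cluster. No source used here names the gene sets behind these deposited scores and phases. The library number in each barcode matched the table's sort in all cells (0 exceptions), 0 barcode sequences were shared between the libraries, and every column used had a known sample.

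Counts were summed over cells per library, phase or cluster and scaled to CPM, with exact Poisson 95% intervals. Ratios have exact conditional binomial 95% intervals, and those at common phase shares a log-scale Poisson interval. All cover counting error only, since the cultures, sorts and library preparations have no replicates. A gene was measured at a mean of at least 10 CPM over the groups compared and called by size alone, at 25% higher or a ratio of at most 0.8. Cells were thinned to 7500 UMIs for own scores (scanpy 1.11.5), and 0 cells were shallower. Scrublet in scanpy, at an expected rate of 0.06, marked 18 low pigment (0.947%) and 15 high pigment cells (0.702%), which were kept. Clusters by phase with under 50 cells were not compared. Likeness used a pseudocount of 1 CPM. Other software was scipy 1.17.1, numpy 2.4.6 and pandas 2.3.3. The calculations were tested on simulated data.

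The members, the pathway lists (6 lists, 103 genes) and the phase lists were chosen with earlier results of these data known. All members are named, and of each pathway list the largest and smallest library ratio, 10 set partners (Ccne2, Ccnb2, Cdk1, Cdk2, Cdkn1a, Cdkn2c, Skp2, Cks1b, Rb1, E2f1) and the 2 genes most like each member. Cdkn2a, Cdkn2b and antisense neighbours were named in addition, after their values were seen. Alternatives covered scaling, cells, phase calls, phase weights and limits.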

Additional observations from a re-analysis of the deposited data

How the results depend on the processing

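Over the alternatives, 340 ratios of members were recomputed: 281 moved by less than their counting interval, 58 moved farther and 1 changed direction from a called value, namely Ccnb1 in G1 at 0.880 with phases called anew. For called members, 161 of 162 recomputed ratios kept their direction. At common phase shares Ccnf ranged from 2.19 to 2.74, Ccnd3 from 0.626 to 0.683, Ccne1 from 0.543 to 0.686, Cdkn1b from 0.754 to 0.813, Ccnb1 from 1.01 to 1.21 and Ccna2 from 0.991 to 1.14.

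Counts of called members moved as follows. With UMIs per cell in place of CPM, 1 member was higher and 7 lower by library. At a minimum of 50 CPM, 1 was higher by library, and 0 in G1, 0 in S, 0 in G2M and 0 at common shares, since the members counted there at 10 CPM (Ccna2, Ccnb1 or Ccnf) then lie below the minimum. At a limit of 1.5-fold, 1 was higher and 2 lower by library, 1 higher and 1 lower in G1, and 1 higher and 0 lower in S. With phases called anew, 0 were higher in G1 (Ccna2, at 1.58, was below the minimum) and 1 was lower in S. With the mean of per-cell CPM 1 was higher in G1. By library, 3 were higher and 3 lower with the median gene set to 1, where Ccna2 gained and Cdkn1b lost its call. In G2M, 2 were higher with the median gene set to 1 and 3 in cells with 10000 to 20000 UMIs. With the median gene set to 1, Ccnd2 gained and Cdk4 lost its call in G2M. The cause of these moves was not tested, other than the minimum. No paired analysis was possible because each group has 1 library. Depth limits Ccnf and Ccna2 in G1 most.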

Other observations

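Several genes of the pathway lists fell below the minimum of 10 CPM and so outside the counts, and were picked after their values were seen. Ccno, a cyclin of multiciliated cells, had 291 UMIs in the low and 79 in the high pigment library, a ratio of 0.305 (0.235–0.393). E2f2, an activating E2F, had 325 and 129 UMIs (0.446, 0.361–0.549). Ccng2, a cyclin linked to cell cycle arrest, had 393 and 182 UMIs (0.521, 0.434–0.622). Cdk18 had 367 and 168 UMIs (0.515, 0.426–0.619). All 4 were lower in high pigment cells by more than any member except Ccne1, whose ratio of 0.520 lies among them.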
